A study of Mus musculus with 27 samples.

Results

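The proteasome subunit genes were examined in injured mouse muscle. They were taken as every protein-coding row of the gene table whose symbol begins with Psm, then a letter from a to g, then a digit, which gave 50 of 54532 genes. By their known roles these were 7 alpha and 7 constitutive beta subunits of the 20S core, 3 immunoproteasome subunits, 2 tissue-restricted subunits, 6 ATPases and 11 non-ATPases of the 19S cap, 3 chaperones of 19S assembly, 5 activator genes, the regulator Psmf1 (PI31), 4 chaperones of 20S assembly, and Psmc3ip, whose symbol fits but whose product works in meiotic recombination and is no subunit. Another 4 rows with such symbols were pseudogenes and were left out.

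Volumetric muscle loss is the removal of more muscle than the tissue can rebuild. In C57BL/6 male mice, 8 weeks old, 40% of the tibialis anterior was cut out, and whole muscles were taken 3, 7, 14 or 21 days later (5, 6, 6 and 5 samples) beside 5 uninjured control muscles. The series' design text calls the injury unilateral and the study's methods call it bilateral, and the labels give neither the animal of a sample nor whether an uninjured muscle came from an injured mouse. P-values therefore measure the spread between these samples, which may be technical. Polyadenylated RNA was sequenced without strand information.

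The 26S proteasome is the protease that removes ubiquitin-tagged proteins. Its 20S core is a barrel of alpha and beta rings with the cutting sites in Psmb5, Psmb6 and Psmb7, and its 19S cap binds ubiquitin and unfolds the substrate. Leukocytes, and other cells under interferon, replace the cutting subunits with Psmb8, Psmb9 and Psmb10 to form the immunoproteasome, which trims peptides for MHC class I, and in muscle the proteasome is known for the breakdown of fibre proteins in atrophy.

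Levels are FPKM (fragments per kilobase of gene and per unit of library size), and differences are of mean log2(FPKM + 1), which understates the change of low genes. A gene was called at a limma adjusted p under 0.05 over the 14630 genes with at least 0.5 FPKM in at least 5 samples. The libraries held 14376395 to 24436763 reads in genes. Leukocyte and macrophage markers (10 of 10) were called higher at day 3, with a summed level of 25.7 to 38.8 FPKM in uninjured and 510 to 2842 FPKM in day 3 muscle. Of 10 muscle fibre markers 8 were called lower, 6 when scaled to library totals, 3 with a common sum of FPKM and 2 with quantile normalization. Their sum was 90215 to 107721 FPKM in uninjured muscle and 23174 to 67159 FPKM at day 3, so the labelled tissue carried its defining markers throughout. Neutrophil markers (3 of 3) and fibroblast markers (3 of 4) were also called higher at day 3, Kdr was the 1 of 4 endothelial markers called lower, none of 3 Schwann cell markers was called, and 1 of 5 T, NK and B cell markers was high enough to test and was not called. Some libraries stood apart. Day 3 replicate 5 had the lowest leukocyte sum of its group, day 7 replicate 5 had 2764 FPKM against 72.8 to 643 FPKM in the other day 7 samples, and day 3 replicate 5, day 7 replicate 6, day 14 replicate 1 and day 21 replicate 5 held the lowest level of their group in 26, 21, 18 and 29 of the 31 subunits of the constitutive 26S particle (in 31.8%, 23.1%, 21.9% and 32.1% of all genes tested). The part of these cell-type differences in the results below was not tested, and in bulk muscle fewer cells of a type and less RNA per cell cannot be told apart.

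Upstream sequences are printed for genes that were called at day 3 (Psmb10, Psme2, Psme4, Psmd12) and for Psmb5, the constitutive partner of Psmb8. RefSeq promoter windows, from 250 bases before to 50 after a transcript start, were found for 42 of the 50 genes (45 windows), and only the run that overlaps no annotated exon is shown, 5′ to 3′, with capitals where TGACNNNGC, the core of the antioxidant response element, matched on either strand. The runs end 28 bases before the start for Psmb5, 53 for Psmb10, 13 for Psme2, 50 for Psme4 and 45 for Psmd12.
Psmb5 (GRCm38.p6 chr14:54618023-54618245, minus strand): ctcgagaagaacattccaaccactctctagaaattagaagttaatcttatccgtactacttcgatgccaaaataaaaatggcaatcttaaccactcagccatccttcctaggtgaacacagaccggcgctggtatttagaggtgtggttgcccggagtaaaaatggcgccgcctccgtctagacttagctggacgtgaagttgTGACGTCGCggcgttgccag
Psmb10 (GRCm38.p6 chr8:105938445-105938642, minus strand): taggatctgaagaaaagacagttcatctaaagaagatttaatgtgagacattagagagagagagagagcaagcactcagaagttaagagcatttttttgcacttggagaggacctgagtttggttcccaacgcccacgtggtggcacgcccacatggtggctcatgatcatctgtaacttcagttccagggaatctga
Psme2 (GRCm38.p6 chr14:55591114-55591351, minus strand): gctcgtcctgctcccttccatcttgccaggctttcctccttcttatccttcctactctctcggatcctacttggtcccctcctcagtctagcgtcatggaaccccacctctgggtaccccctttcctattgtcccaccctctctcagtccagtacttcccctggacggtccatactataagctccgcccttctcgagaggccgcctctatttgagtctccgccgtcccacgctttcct
Psme4 (GRCm38.p6 chr11:30771525-30771725, plus strand): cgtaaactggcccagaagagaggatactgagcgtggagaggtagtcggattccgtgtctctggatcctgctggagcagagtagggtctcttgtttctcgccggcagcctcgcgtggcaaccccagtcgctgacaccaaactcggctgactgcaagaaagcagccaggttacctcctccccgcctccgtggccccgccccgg
Psmd12 (GRCm38.p6 chr11:107479278-107479483, plus strand): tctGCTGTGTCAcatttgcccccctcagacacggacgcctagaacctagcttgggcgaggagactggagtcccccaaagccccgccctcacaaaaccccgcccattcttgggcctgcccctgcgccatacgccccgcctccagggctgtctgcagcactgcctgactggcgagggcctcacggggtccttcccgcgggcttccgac

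TGACNNNGC was in 6 of the 45 windows (13.3%) against 12.4% of 32851 windows over all genes, and it lay 47 bases before the start in Psmb5, 247 before it in Psmd12 and 7 before it in Psme4, where it runs into the transcript and is not printed. The core of the interferon-stimulated response element was in 5 windows (11.1%, against 3.44% of all), 1 of them Psme1 and none of them the windows of Psmb8, Psmb9, Psmb10 or Psme2. The windows of Psmb8 and Psmb9 lay inside the annotated genes, so bases before the outermost annotated start of these genes were not searched. CCAAT, the NF-Y box, was in 15 (33.3%, against 37.4%), among them Psmb9. A match is a description of these letters in this window, motifs were searched on both strands, and windows of 1 gene can overlap.

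Across the whole family, with the samples scaled as deposited, day 3 was the time with the most calls, and all but 1 of them lay outside the constitutive particle. With quantile normalization day 14 had 6 members higher and 2 lower (6.883% and 8.913% of all genes). Day 3 had 6 and 1 with that scaling (18.96% and 25.52% of all genes). Scaling to library totals called 34 members higher at day 3 (44.66% of all genes). Of 48 genes tested, 7 were called higher at day 3 (23.4% of all genes tested were) and 2 lower (19.8% of all). The 7 were the immunoproteasome subunits Psmb8, Psmb9 and Psmb10, the activator Psme2, and the assembly chaperones Psmd10, Psmd5 and Psmg3. The 2 were the activator Psme4 and the 19S subunit Psmd12, the only one of the 31 particle subunits that was called. Both counts are smaller shares of 48 than these backgrounds, and the median size of a member's day 3 difference was 0.17 on the log2 scale against 0.37 over all genes tested. Groups did not overlap for 5 genes above (19.8% of all genes) and 3 below the uninjured samples (16.5% of all).

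At day 7 no member was called higher (15% of all genes were; 4 members had an unadjusted limma p under 0.05 in either direction, and voom called 0 higher) and 2 were lower (14.4% of all), Psme4 and Psmd12 again. At day 14 none was called higher (9.02% of all; 7 had an unadjusted p under 0.05, and voom called 0 higher) and 3 lower (11.3% of all), Psme4, Psmd7 and Psmd8. At day 21 none was called in either direction (1.74% of all genes higher and 1.69% lower; 1 member had an unadjusted p under 0.05, and voom called 0). Over all genes tested, 41.7%, 34.7% and 19.8% had an unadjusted limma p under 0.05 at days 7, 14 and 21. Non-overlap with the uninjured samples was found above in 0 members and below in 2 at each of these times, against 7.25% and 5.37% of all genes at day 7, 7.67% and 8.05% at day 14, and 5.26% and 5.13% at day 21. The 4 comparisons share the uninjured samples, so they are not independent of each other.

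**Figure D1:**
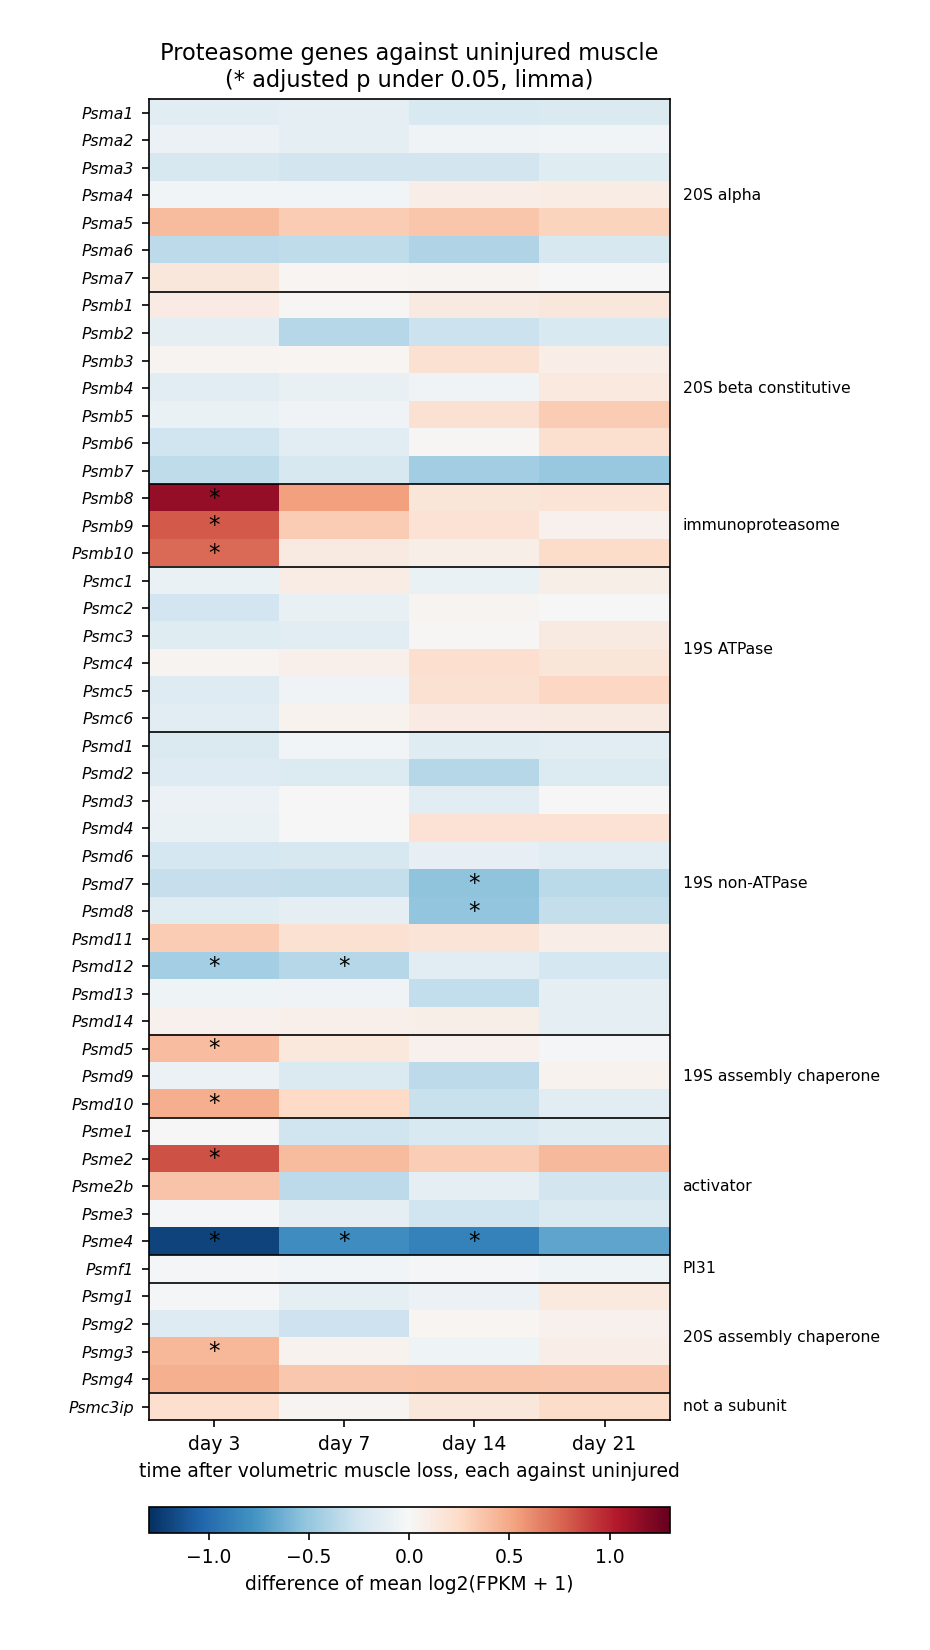
Difference of mean log2(FPKM + 1) against uninjured muscle for the 48 tested proteasome genes (rows, by role) at 4 times after injury (columns), with stars at limma adjusted p under 0.05. The 3 immunoproteasome rows and Psme2 are darkest red at day 3, Psme4 is blue at every time, and most rows of the 20S core and 19S cap are pale.

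The 20S core alpha ring, which gates the barrel, showed no called member at any time with the deposited scaling. Psma4 and Psma5 were called at day 3 in 2 and 4 of 14 alternative settings. At day 3 its 7 differences ran from -0.34 to 0.41 with a median of -0.07, against 0.01 over all genes. Psma5 measured 42.7, 41.4, 37.8, 43.2 and 31 FPKM in the uninjured samples and 59.2, 50.1, 56.6, 59 and 38.9 FPKM at day 3. The values of Psma5 were above all uninjured samples in 4 of 5 day 3 samples and within them in replicate 5, and the difference was 0.41 ± 0.22 (SE; adjusted p = 0.144, limma), not called. Later, Psma5 ran through a lowest, median and highest value of 30.6, 51.8 and 75.8 FPKM at day 7 and of 33.9, 53.9 and 64.9 FPKM at day 14, and measured 54.5, 57.3, 48.2, 60.6 and 27.3 FPKM at day 21. At those later times 4 samples of each group lay above the uninjured range, and 1 sample lay below it at days 7 and 21. Psma4 measured 66.8, 64.9, 69.7, 66.4 and 55.3 FPKM in the uninjured samples and 67.2, 66.3, 65.8, 58.9 and 57.6 FPKM at day 3. All 5 day 3 values of Psma4 lay inside the uninjured range, and the difference was -0.03 with a 95% interval of -0.35 to 0.28. The lowest, median and highest Psma4 values were 56.4, 59.3 and 80.8 FPKM at day 7, then 40.3, 77 and 83.2 FPKM at day 14, and the day 21 samples held 72, 74.2, 65.7, 82.5 and 53.4 FPKM. Day 14 replicate 1, at 40.3 FPKM, was far below the other 5 samples of its time. Psma6 had the lowest estimate of the ring, at 121, 126, 115, 118 and 112 FPKM in uninjured and 97.4, 104, 95, 91.3 and 81.7 FPKM in day 3 samples. The groups did not overlap, also at days 7 and 21 (16.5%, 5.37% and 5.13% of all genes were wholly lower at days 3, 7 and 21). The difference at day 3 was -0.34 ± 0.16 (SE; adjusted p = 0.0983, limma) and was not called. With samples scaled to library totals or to a common sum of FPKM, Psme4 alone of the members stayed below 0 at days 3 and 7. The Psma6 estimate thus turned above 0 there.

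With the deposited scaling the constitutive beta ring gave 5 estimates below and 2 above 0 at day 3, with a median of -0.11 and none called. Psmb3 measured 74.5, 63.5, 72.1, 62.6 and 58.2 FPKM in the uninjured samples and 64.1, 78.9, 66.1, 66.2 and 62.8 FPKM at day 3. Psmb3, a structural subunit without a cutting site, had the smallest difference of the ring at 0.03 (95% interval -0.35 to 0.41), and 4 of 5 day 3 samples lay inside the uninjured range. Psmb3 had a lowest, median and highest level of 53, 62.8 and 88.8 FPKM at day 7 and 38.7, 79.5 and 119 FPKM at day 14, with 72.5, 79.1, 69.4, 69.3 and 61.9 FPKM in the day 21 samples. At day 14 replicate 6 read highest and replicate 1 lowest, so that the group spanned the uninjured range on both sides.

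Psmb5 measured 230, 185, 261, 179 and 187 FPKM in the uninjured samples and 179, 211, 201, 187 and 192 FPKM at day 3. Psmb5 carries the chymotrypsin-like site and had the highest FPKM of the family in uninjured muscle, 208 ± 35.7 (SD, n = 5) against 194 ± 12.6 at day 3, a difference of -0.09 with an interval of -0.49 to 0.31. Among day 7 samples Psmb5 read 154, 185 and 296 FPKM (lowest, median, highest), among day 14 samples 132, 256 and 367 FPKM, and in the 5 day 21 samples 270, 285, 253, 276 and 216 FPKM. All 5 day 21 values lay above all 5 day 3 values, though the difference from day 3 to day 21 of 0.41 was not called (adjusted p = 0.137, limma; 6.93% of all genes were wholly higher at day 21). Psmb6 measured 138, 123, 157, 122 and 120 FPKM in the uninjured samples and 101, 124, 108, 98.6 and 120 FPKM at day 3. Psmb6 has the caspase-like site, and 3 of 5 day 3 values were below the uninjured range, with a difference of -0.26 ± 0.20 (SE; adjusted p = 0.316, limma). For Psmb6 the day 7 samples gave 92.3, 127 and 142 FPKM as lowest, median and highest values, the day 14 samples gave 68.3, 142 and 196 FPKM, and those of day 21 read 144, 178, 123, 171 and 150 FPKM. By day 21 no value of Psmb6 was below the uninjured range and 2 were above it. Psmb7 measured 45, 43.7, 24.9, 38 and 42 FPKM in the uninjured samples and 32.3, 33.8, 35.6, 28.8 and 21.6 FPKM at day 3. For Psmb7, which has the trypsin-like site, uninjured replicate 3 was far below the other uninjured samples and the groups overlapped, at a difference of -0.33 ± 0.31 (SE; adjusted p = 0.417, limma). At day 7 Psmb7 had lowest, median and highest values of 15.6, 35.2 and 50.05 FPKM, at day 14 of 14.3, 28.2 and 40.4 FPKM, and the 5 day 21 samples read 32.5, 25, 43.5, 32.5 and 11.4 FPKM. Psmb7 varied most of the 3 cutting subunits at day 21, where replicate 5 read 11.4 FPKM. Of its exon bases 11.8% are shared with Nek6, and these unstranded reads cannot be split between them.

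All 3 immunoproteasome subunits rose at day 3. They replace Psmb5, Psmb6 and Psmb7 in newly made cores, and Psmb8 (chromosome 17, 34197721 to 34201454) and Psmb9 (chromosome 17, 34181988 to 34187764) lie beside the Tap genes in the MHC region while Psmb10 is on chromosome 8, 105935735 to 105938444 (coordinates of the gene table, GRCm38). Psmb8 measured 3.84, 2.8, 4.98, 3.38 and 4.39 FPKM in the uninjured samples and 8.58, 6.44, 11.3, 12.3 and 10.9 FPKM at day 3. Every day 3 sample was above every uninjured sample, and Psmb8 rose by 1.15 ± 0.28 (SE; adjusted p = 0.00165, limma), a 2.22-fold change on that scale. Later, Psmb8 ran through a lowest, median and highest value of 2.97, 6.1 and 13.1 FPKM at day 7 and of 2.58, 4.49 and 7.08 FPKM at day 14, and measured 4.18, 3.46, 3.14, 5.91 and 6.19 FPKM at day 21. At day 7 replicate 5, the library with the highest leukocyte sum, also held the highest Psmb8, 4 of 6 samples were above the uninjured range and the difference of 0.54 ± 0.27 (SE; adjusted p = 0.126, limma) was not called. Without day 7 replicate 1, the lowest sample of its time, it was 0.70 and called (adjusted p = 0.0491). At day 21 all 5 values were below all day 3 values (12.2% of all genes were).

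Psmb9 measured 2.98, 1.65, 2.7, 1.15 and 2.54 FPKM in the uninjured samples and 3.81, 3.16, 4.33, 4.73 and 6.83 FPKM at day 3. The groups did not overlap, and Psmb9 rose by 0.80 ± 0.29 (SE; adjusted p = 0.0279, limma). The lowest, median and highest Psmb9 values were 1.32, 3.18 and 6.39 FPKM at day 7, then 1.5, 2.21 and 4.94 FPKM at day 14, and the day 21 samples held 2.38, 2.59, 1.52, 1.42 and 3.92 FPKM. Day 3 replicate 5 read highest and held the lowest leukocyte sum of its group (510 FPKM), and at day 7 replicate 5 was highest in both. The part of leukocytes in the Psmb9 values was not tested. The Psmb9 call at day 3 was lost without uninjured replicate 2 (0.74, adjusted p = 0.0618), uninjured replicate 4 (0.67, adjusted p = 0.0849), day 3 replicate 4 (0.78, adjusted p = 0.0540) or day 3 replicate 5 (0.67, adjusted p = 0.0802), and with quantile normalization 0.65 (adjusted p = 0.0653). Psmb9 shares 5.79% of its exon bases with Tap1 on the other strand, and Psmb8 shares 14.7% with Gm20496. Psmb10 measured 17.9, 12, 16.8, 12.5 and 13.4 FPKM in the uninjured samples and 22.2, 20.9, 26.6, 25.7 and 27.6 FPKM at day 3. Again all day 3 values lay above all uninjured values, and Psmb10 rose by 0.73 ± 0.24 (SE; adjusted p = 0.0138, limma). Psmb10 had a lowest, median and highest level of 8.08, 16.2 and 25.9 FPKM at day 7 and 10.3, 14.5 and 23.3 FPKM at day 14, with 14.6, 19.6, 14.8, 16 and 21.5 FPKM in the day 21 samples. At day 7 the samples fell on both sides of the uninjured range, with replicate 5 highest and replicate 1 lowest.

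**Figure D2:**
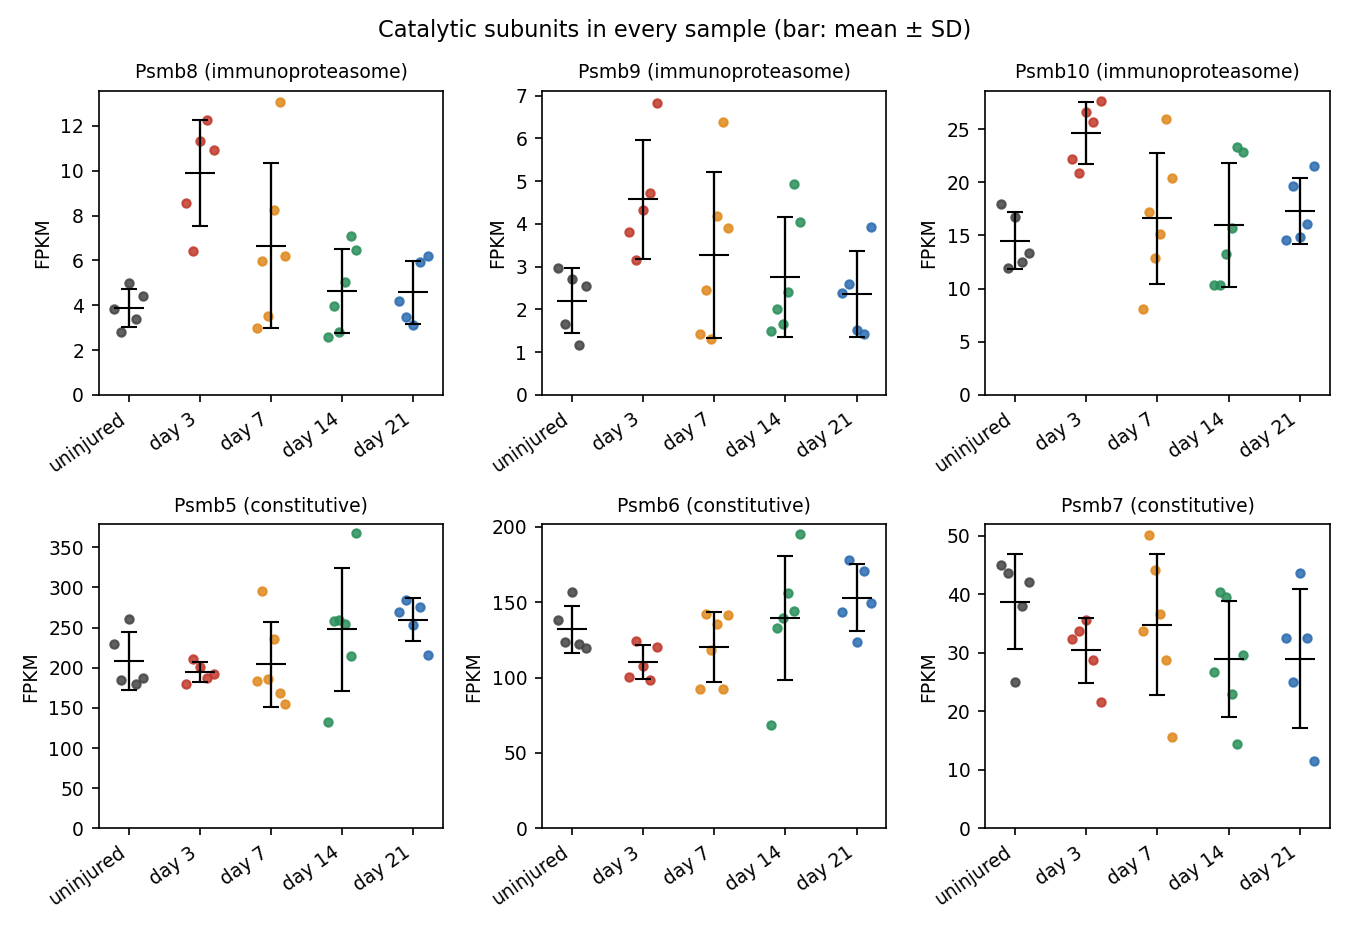
FPKM of the 3 immunoproteasome subunits (top) and their constitutive partners (bottom) in all 27 samples by group, with the mean ± SD. The day 3 points of Psmb8, Psmb9 and Psmb10 lie above all uninjured points, and those of Psmb5, Psmb6 and Psmb7 overlap them.

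The ratio of each immunoproteasome subunit to its partner within a sample does not change with the scaling between samples. For Psmb8 to Psmb5 the log2 ratios were -5.90, -6.04, -5.71, -5.73 and -5.41 in uninjured and -4.38, -5.04, -4.15, -3.93 and -4.14 in day 3 samples. All 5 day 3 ratios were above all uninjured ratios, and the means differed by 1.43, a 2.70-fold shift (exact permutation test, two-sided, p = 0.00794, adjusted p = 0.0476 over 12 ratio tests). In FPKM, Psmb8 made up 1.83% ± 0.30 of the pair in uninjured and 4.88% ± 1.22 in day 3 muscle (SD, n = 5), a share that depends on the gene lengths the table uses. For Psmb9 to Psmb6 the ratios were -5.54, -6.22, -5.86, -6.73 and -5.56 in uninjured and -4.72, -5.30, -4.64, -4.38 and -4.14 in day 3 samples. Here too no ratio overlapped, at a difference of 1.35 (exact permutation test, two-sided, p = 0.00794, adjusted p = 0.0476), and Psmb9 went from 1.63% ± 0.50 to 3.99% ± 1.08 of its pair. For Psmb10 to Psmb7 the ratios were -1.33, -1.87, -0.57, -1.60 and -1.65 in uninjured and -0.54, -0.70, -0.42, -0.17 and 0.36 in day 3 samples. Uninjured replicate 3, where Psmb7 was low, overlapped the day 3 samples, 4 of 5 of which were above all uninjured ratios, and the difference of 1.11 did not pass (exact permutation test, two-sided, p = 0.0159, adjusted p = 0.0635). With any 1 of the 10 samples left out the first 2 ratios differed by 1.33 to 1.61 and by 1.16 to 1.51 with adjusted p of 0.0635 to 0.0952. The smallest p that 4 against 5 samples allow is 0.0159 (exact permutation test, two-sided), which does not pass after adjustment over 12 tests unless other ratios reach it too, so these p-values say nothing about stability.

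None of the 9 later ratio tests passed. At day 7 the lowest, median and highest log2 ratios were -5.95, -5.23 and -3.69 for Psmb8 to Psmb5, with 3 of 6 samples above the uninjured range and a difference of 0.68 (exact permutation test, two-sided, adjusted p = 0.324). At day 14 that ratio was -6.54, -5.75 and -4.92, a difference of -0.02 (exact permutation test, two-sided, adjusted p = 0.935). The 5 day 21 samples read -6.01, -6.36, -6.33, -5.54 and -5.13, a difference of -0.12 from uninjured muscle (exact permutation test, two-sided, adjusted p = 0.805), so the day 21 samples lay around the uninjured range with 1 above and 2 below it. In a direct comparison added after the data had been seen, day 21 minus day 3 was -1.55 for Psmb8 to Psmb5 (exact permutation test, two-sided, p = 0.00794, adjusted p = 0.0238 over 3 tests), -1.47 for Psmb9 to Psmb6 (p = 0.0159, adjusted p = 0.0238) and -0.34 for Psmb10 to Psmb7 (p = 0.5, adjusted p = 0.5). The Psmb10 ratio at day 21 reached its highest value, 0.92, in replicate 5, where Psmb7 was lowest.

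**Figure D3:**
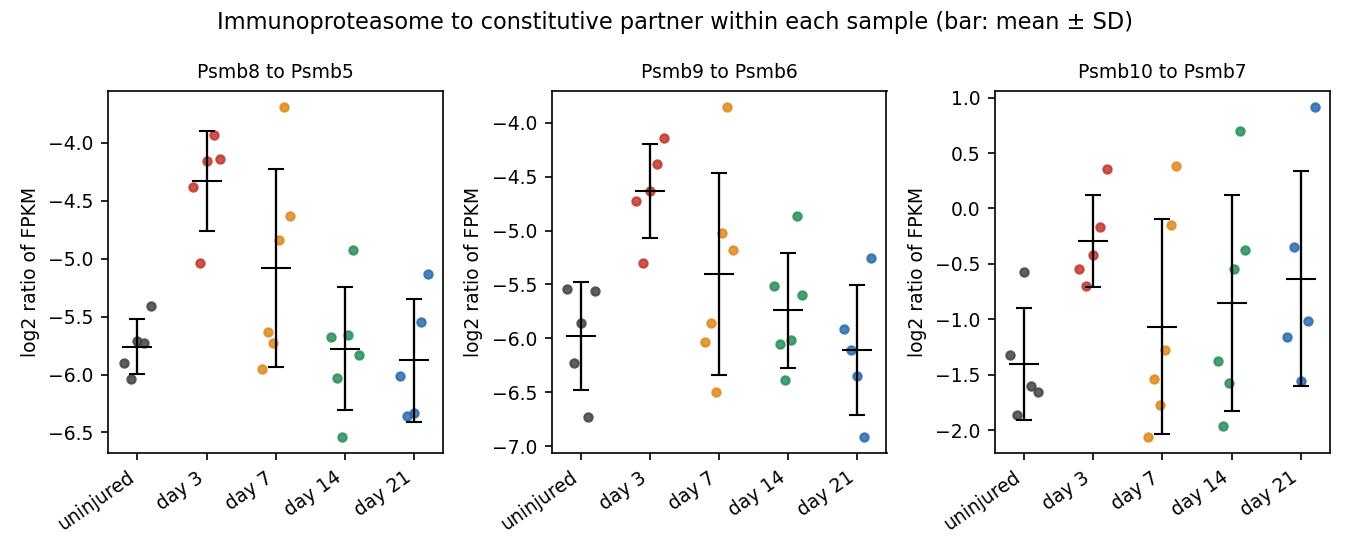
Log2 ratio of FPKM of each immunoproteasome subunit to its constitutive partner in every sample, by group, with the mean ± SD. Day 3 is apart from uninjured for Psmb8 to Psmb5 and Psmb9 to Psmb6, 1 uninjured sample overlaps day 3 for Psmb10 to Psmb7, and the day 7 samples spread over both ranges.

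Of the 17 subunits of the 19S cap, Psmd12 was the only one called at day 3 with the deposited scaling. None of the 6 ATPases, which unfold the substrate and open the gate, was called at any time with that scaling. Their day 3 differences ran from -0.25 to 0.04. Psmc2 and Psmc4 were called at day 3 in 1 and 2 of 14 alternative settings. Psmc2 measured 30.4, 30.8, 29.2, 32.1 and 26.8 FPKM in the uninjured samples and 24.5, 29.6, 26.4, 24.7 and 20.3 FPKM at day 3. Psmc2 lay below the uninjured range in 4 of 5 day 3 samples, with the largest difference of the ATPases at -0.25 ± 0.15 (SE; adjusted p = 0.183, limma). Among day 7 samples Psmc2 read 22.6, 27 and 34.1 FPKM (lowest, median, highest), among day 14 samples 21.5, 33.5 and 38.9 FPKM, and in the 5 day 21 samples 32.5, 29, 31.1, 32.1 and 25.2 FPKM. By day 14 samples lay on both sides of the uninjured range. Psmc4 measured 53.7, 52.3, 55.6, 50.2 and 53.3 FPKM in the uninjured samples and 50.2, 61.8, 60.3, 56.8 and 45.2 FPKM at day 3. Psmc4 was above the narrow uninjured range in 3 day 3 samples and below it in the other two, at 0.04 with an interval of -0.31 to 0.39. For Psmc4 the day 7 samples gave 43.3, 53.7 and 70.5 FPKM as lowest, median and highest values, the day 14 samples gave 42.7, 64 and 82 FPKM, and those of day 21 read 71.6, 74.9, 60.7, 64.6 and 35 FPKM. Psmc4 was above that range in 5 of 6 day 14 and 4 of 5 day 21 samples, with differences of 0.22 and 0.16 that were not called.

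Among the 11 non-ATPases, 9 had day 3 estimates below 0 and 1 was called, with the deposited scaling. Psmd12 measured 51.2, 49.7, 43.4, 50.5 and 43.8 FPKM in the uninjured samples and 36.6, 36.1, 36.5, 32.4 and 33.1 FPKM at day 3. All day 3 samples were below all uninjured samples, and Psmd12, a scaffold subunit of the lid, fell by 0.44 ± 0.13 (SE; adjusted p = 0.0104, limma). At day 7 Psmd12 had lowest, median and highest values of 30.6, 36.9 and 42 FPKM, at day 14 of 33.1, 45.9 and 51.3 FPKM, and the 5 day 21 samples read 46.4, 37.9, 48, 38.5 and 33 FPKM. All 6 day 7 samples were also below the uninjured range, the difference being -0.37 ± 0.13 (SE; adjusted p = 0.0313, limma), while day 14 samples lay on both sides of it. The day 7 call was lost without uninjured replicates 1, 2 or 4 (adjusted p = 0.0709, 0.0633 and 0.0669) or day 7 replicates 1, 5 or 6 (adjusted p = 0.0502, 0.0780 and 0.0529), with differences of -0.37 to -0.32. Psmd13 measured 26.5, 26.4, 26.8, 24.9 and 28.6 FPKM in the uninjured samples and 23, 31.4, 29.7, 27 and 19.2 FPKM at day 3. Psmd13, another lid subunit, had the smallest difference of the group, -0.05 with an interval of -0.52 to 0.42, its day 3 values lying inside, above and below the uninjured range. Later, Psmd13 ran through a lowest, median and highest value of 13, 28.4 and 36 FPKM at day 7 and of 14.1, 21.4 and 29.7 FPKM at day 14, and measured 26.4, 25.9, 29.7, 32.5 and 13 FPKM at day 21. Replicate 6 at day 7 and replicate 5 at days 14 and 21 were the lowest of their groups.

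At day 14 the lid subunits Psmd7 and Psmd8 were called lower. Psmd7 measured 67.6, 68.9, 66.3, 81.1 and 69.6 FPKM in uninjured samples, and its lowest, median and highest day 14 values were 28.6, 51.8 and 63 FPKM. No sample overlapped, and Psmd7 fell by 0.52 ± 0.18 (SE; adjusted p = 0.0439, limma). Psmd8 measured 73.5, 83.7, 91.5, 101 and 83.8 FPKM in uninjured samples and had lowest, median and highest day 14 values of 38.1, 63.7 and 79.99 FPKM. Of the 6 samples 4 were below the uninjured range, and Psmd8 fell by 0.52 ± 0.18 (SE; adjusted p = 0.0424, limma). Both were lowest in day 14 replicate 5 and next in replicate 1, and without replicate 5 they stood at -0.37 (adjusted p = 0.133) and -0.39 (adjusted p = 0.127). The Psmd7 call was also lost without any 1 of the 5 uninjured samples or without day 14 replicates 1 or 4 (adjusted p = 0.0600 to 0.102), and the Psmd8 call without uninjured replicates 2, 3, 4 or 5 or day 14 replicates 1, 4 or 6 (adjusted p = 0.0501 to 0.103).

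Of the 5 activator genes Psme2 rose and Psme4 fell at day 3. Psme1 and Psme2 form the PA28 ring, which opens the 20S core without ubiquitin and is known for its part in antigen processing, and Psme4 is PA200, a large single-chain activator. Psme2 measured 13.5, 11.1, 19.9, 9.3 and 13 FPKM in the uninjured samples and 23.7, 25.2, 18.8, 23.1 and 29.1 FPKM at day 3. The day 3 values of Psme2 were above the uninjured range in 4 of 5 samples and inside it in replicate 3, and Psme2 rose by 0.83 ± 0.25 (SE; adjusted p = 0.00939, limma), a 1.77-fold change. The lowest, median and highest Psme2 values were 12.7, 18.3 and 24.8 FPKM at day 7, then 10.5, 14.9 and 29.2 FPKM at day 14, and the day 21 samples held 12.1, 22.5, 14.5, 21.8 and 19.7 FPKM. Day 14 fell into low and high samples, replicates 4 and 6 being above the uninjured range. Psme1 measured 37.4, 27.7, 32.2, 25.3 and 26.2 FPKM in the uninjured samples and 26, 25.3, 27.7, 30 and 40.8 FPKM at day 3. For Psme1, the partner of Psme2, the difference was 0.00 with an interval of -0.38 to 0.38, and only replicate 5 was above the uninjured range at day 3. Psme1 had a lowest, median and highest level of 16.1, 26.4 and 32.2 FPKM at day 7 and 16.7, 25.4 and 35.3 FPKM at day 14, with 24.7, 23, 22.6, 25.2 and 39.2 FPKM in the day 21 samples. Day 21 replicate 5 read highest of its group and the other 4 were below the uninjured range. Psme2b, a near-identical copy of Psme2, had 16.1 ± 3.04 FPKM in uninjured and 21.3 ± 5.17 FPKM in day 3 muscle (SD, n = 5; 0.37 ± 0.24 (SE; adjusted p = 0.224, limma)), and how reads were divided between the 2 copies is uncertain. Psme3, the nuclear PA28 gamma subunit, differed by -0.03 (-0.29 to 0.23).

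Psme4 measured 20.6, 31.1, 22.2, 34.5 and 29.2 FPKM in the uninjured samples and 12.9, 12.2, 13.6, 10.5 and 7.74 FPKM at day 3. No values overlapped, and Psme4 fell by 1.2 ± 0.20 (SE; adjusted p = 4.65e-05, limma), to 0.435 times the uninjured level on the log2(FPKM + 1) scale. Among day 7 samples Psme4 read 11.9, 14.7 and 20.9 FPKM (lowest, median, highest), among day 14 samples 8, 16.5 and 18.1 FPKM, and in the 5 day 21 samples 16.5, 15.7, 18.3, 20.2 and 12.2 FPKM. Every later sample was below every uninjured sample except day 7 replicate 3, at 20.9 FPKM. The differences were -0.81 ± 0.19 (SE; adjusted p = 0.00332, limma) on day 7, -0.88 ± 0.19 (SE; adjusted p = 0.00298, limma) on day 14 and -0.69 ± 0.20 (SE; adjusted p = 0.0523, limma) by day 21, where all 5 samples were lower (5.13% of all genes were) but the gene was not called. Without uninjured replicate 1 the day 21 difference was -0.78 (adjusted p = 0.0473) and without day 21 replicate 4 it was -0.76 (adjusted p = 0.0485). With the replicate number as a block it was -0.69 (adjusted p = 0.0275). The summed muscle fibre markers were also lower in every day 3 sample than in every uninjured sample, but within day 3 replicate 5 had the lowest Psme4 and the highest muscle fibre sum, 67159 FPKM. The part of these markers in the Psme4 result was not tested.

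**Figure D4:**
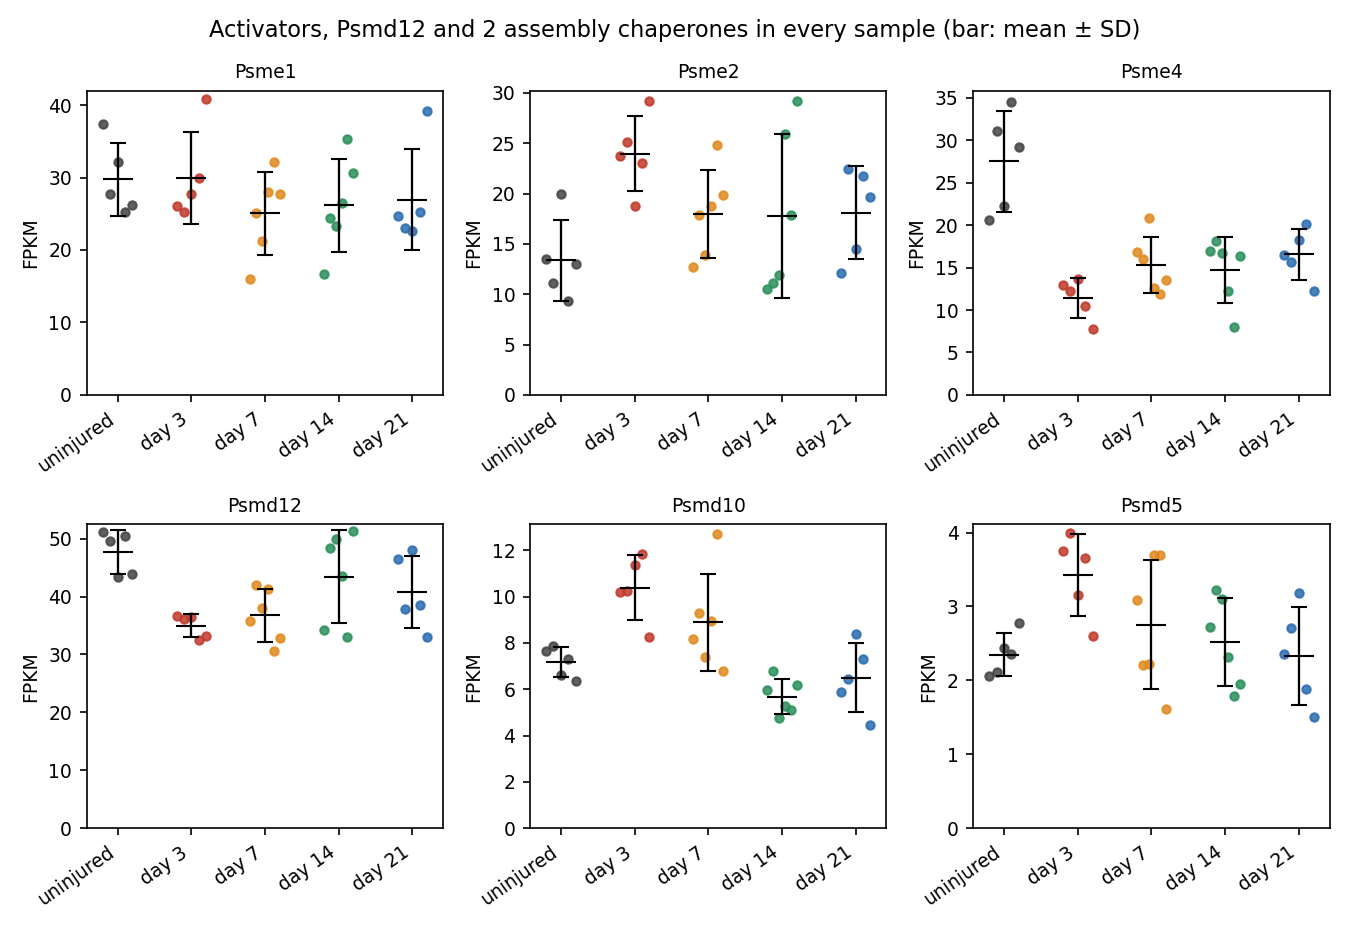
FPKM of the activators Psme1, Psme2 and Psme4, the 19S subunit Psmd12 and the 19S assembly chaperones Psmd10 and Psmd5 in all 27 samples by group, with the mean ± SD. Psme4 and Psmd12 lie below every uninjured sample at day 3, Psmd10 lies above, and Psme1 overlaps at every time.

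The 7 assembly chaperones help build the particle and then leave it, and 3 were called higher at day 3 (23.4% of all genes were). Psmd10 measured 7.67, 7.87, 6.61, 7.3 and 6.37 FPKM in the uninjured samples and 10.2, 10.2, 11.4, 11.9 and 8.25 FPKM at day 3. All day 3 samples were above all uninjured samples, and Psmd10 (gankyrin) rose by 0.47 ± 0.15 (SE; adjusted p = 0.0104, limma). For Psmd10 the day 7 samples gave 6.77, 8.57 and 12.7 FPKM as lowest, median and highest values, the day 14 samples gave 4.76, 5.61 and 6.8 FPKM, and those of day 21 read 5.89, 6.44, 8.4, 7.29 and 4.45 FPKM. At day 14, 5 of 6 samples were below the uninjured range, and day 21 samples lay inside and on both sides of it. Psmd5 measured 2.06, 2.11, 2.44, 2.36 and 2.78 FPKM in the uninjured samples and 3.75, 3.99, 3.16, 3.65 and 2.6 FPKM at day 3. Psmd5 was above the uninjured range in 4 of 5 samples and rose by 0.40 ± 0.16 (SE; adjusted p = 0.0498, limma), just inside the threshold. The call was lost without uninjured replicates 1, 2, 3 or 4 or day 3 replicates 1, 2, 3 or 4 (0.35 to 0.42, adjusted p = 0.0630 to 0.108) and with voom 0.54 (adjusted p = 0.0528). At day 7 Psmd5 had lowest, median and highest values of 1.61, 2.65 and 3.7 FPKM, at day 14 of 1.79, 2.52 and 3.22 FPKM, and the 5 day 21 samples read 2.36, 2.71, 3.18, 1.88 and 1.5 FPKM. Psmd9 measured 3.57, 3.9, 3.81, 3.27 and 4.53 FPKM in the uninjured samples and 3.38, 4.04, 3.8, 3.49 and 3.11 FPKM at day 3. Psmd9 was not called, with a difference of -0.08 and an interval of -0.35 to 0.19, and over 20% of its exon bases are shared with another gene. Later, Psmd9 ran through a lowest, median and highest value of 2.03, 3.53 and 4.24 FPKM at day 7 and of 2.32, 2.77 and 3.52 FPKM at day 14, and measured 3.65, 3.78, 4.78, 4.87 and 2.97 FPKM at day 21. Day 14 was lowest, 5 of 6 samples being below the uninjured range.

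Psmg1 to Psmg4 pair up to build the alpha ring. Psmg4 measured 19.9, 19.2, 19, 13 and 15 FPKM in the uninjured samples and 26.1, 19.9, 24.1, 26.1 and 23.6 FPKM at day 3. Psmg4 was higher in every day 3 sample than in every uninjured sample, with the largest estimate of the 4 at 0.46 ± 0.22 (SE; adjusted p = 0.0847, limma), which was not called. The lowest, median and highest Psmg4 values were 15.7, 22.1 and 34.3 FPKM at day 7, then 11.1, 25 and 28.2 FPKM at day 14, and the day 21 samples held 19.3, 22.6, 22.8, 23.9 and 21.3 FPKM. At days 14 and 21, 5 of 6 and 4 of 5 samples were above the uninjured range. Psmg3 measured 2.41, 0.984, 3.51, 2.08 and 2.1 FPKM in uninjured and 2.82, 3.66, 3.29, 3.56 and 2.71 FPKM in day 3 samples. Only 2 of 5 were above the uninjured range, uninjured replicate 2 being far below the rest, and Psmg3 rose by 0.43 ± 0.17 (SE; adjusted p = 0.0442, limma). Without that sample the difference was 0.27 (adjusted p = 0.186), and the call was also lost without uninjured replicates 4 or 5 or day 3 replicates 2, 3 or 4 (0.39 to 0.43, adjusted p = 0.0686 to 0.0948). Psmg1 measured 10.6, 9.81, 13.1, 12.2 and 7.47 FPKM in the uninjured samples and 9.56, 8.92, 12.1, 11.5 and 9.34 FPKM at day 3. All day 3 values of Psmg1 lay inside the uninjured range, at -0.03 (-0.32 to 0.26). Psmg1 had a lowest, median and highest level of 7.67, 9.43 and 11.7 FPKM at day 7 and 7.36, 9.54 and 12.5 FPKM at day 14, with 12.4, 11.7, 10.3, 12.9 and 10.5 FPKM in the day 21 samples. Psmg2 differed by -0.17 (-0.47 to 0.13).

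Psmf1 measured 3.08, 3.11, 2.65, 3.51 and 3.02 FPKM in the uninjured samples and 2.83, 3.08, 2.99, 3.2 and 2.93 FPKM at day 3. PI31, an adaptor and inhibitor of the 20S core, stayed inside the uninjured range in all 5 day 3 samples, with a difference of -0.02 and an interval of -0.22 to 0.17. Among day 7 samples Psmf1 read 2.65, 2.96 and 3.32 FPKM (lowest, median, highest), among day 14 samples 2.17, 3.24 and 3.69 FPKM, and in the 5 day 21 samples 2.88, 3.03, 3.01, 3.38 and 2.28 FPKM. Day 14 replicate 5 and day 21 replicate 5 were the only samples of Psmf1 below the uninjured range. Psmc3ip measured 1.78, 1.41, 1.12, 1.21 and 0.601 FPKM in the uninjured samples and 1.77, 1.11, 1.81, 1.21 and 1.97 FPKM at day 3. The groups of Psmc3ip overlapped, at 0.22 ± 0.18 (SE; adjusted p = 0.354, limma). For Psmc3ip the day 7 samples gave 0.717, 1.18 and 2.34 FPKM as lowest, median and highest values, the day 14 samples gave 0.963, 1.25 and 2.2 FPKM, and those of day 21 read 1.99, 1.12, 2.17, 1.14 and 1.73 FPKM. Of the 2 genes too low to test, Psma8, known from testis, had at most 11 reads in a sample and Psmb11, known from thymus, at most 5.

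From day 3 to day 21 no member was called higher (9.23% of all genes were; 9 members had an unadjusted limma p under 0.05 in either direction, and voom called 0 higher) and 2 were lower (16.2% of all genes were). An unadjusted limma p under 0.05 was found in 37.5% of all genes tested. Psmb8 fell by 0.97 ± 0.28 (SE; adjusted p = 0.0117, limma) and Psmd10 by 0.62 ± 0.15 (SE; adjusted p = 0.00298, limma). For Psmb8 each day 21 value was below each day 3 value, and for Psmd10 4 of 5 were. The estimates for Psmb9 and Psmb10 were -0.74 and -0.49 (adjusted p = 0.0615 and 0.128, limma). Without day 21 replicate 5, 2 members were called higher and 4 lower, and without day 3 replicate 5 there were 4 lower.

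Summed over the 31 subunits of the constitutive particle, the level was 1972 ± 62 FPKM in uninjured muscle and then 1813 ± 192, 1863 ± 290, 1977 ± 443 and 2047 ± 262 FPKM on the 4 days in order (SD; n = 5, 5, 6, 6 and 5). With the deposited scaling the means lay close together, while the spread was larger at each time after injury. This sum was not computed with another scaling. The median coefficient of variation of a particle subunit was 10.2% in uninjured muscle and 13.5%, 17.8%, 23.7% and 15.6% on those days, against 21.8%, 24.3%, 35.9%, 29.9% and 27.4% over all genes tested. The sum of the 3 immunoproteasome subunits was 20.6 ± 3.94 FPKM in uninjured and 39.1 ± 6.27 FPKM at day 3.

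These levels depend on how the samples were scaled to each other. The deposited FPKM imply denominators that were 0.782 times the reads counted in uninjured and 1.25, 1.18, 1.04 and 0.897 times at days 3, 7, 14 and 21 (group means), and median-ratio scaling of the table moved no call of a member. When each library's recovered reads served as the denominator, called own-total scaling here, the median of all genes shifted by 0.39 at day 3. Then 34 members were called higher and 1 lower (44.7% and 4.22% of all genes). Of 48 members 41 lay above that new median, against 17 of 48 with the median-ratio scaling. Own totals multiply every gene of a sample by the same factor, and the pseudocount of 1 damps this in genes of low FPKM. The place of the members against the median thus depends on the pseudocount, and these counts do not show a rise of the family over other genes. At day 7 own-total scaling called 22 higher and 0 lower (36.6% and 2.90% of all genes). The 3 immunoproteasome subunits, Psme2 and the 3 chaperones were called higher with both the own total and a common sum of FPKM, with own-total values for Psmb8 of 1.71 (adjusted p = 8.26e-05), Psmb9 at 1.29 (adjusted p = 0.00111), Psmb10 at 1.36 (adjusted p = 4.69e-05) and Psme2 at 1.45 (adjusted p = 5.34e-05). Psmd10 was at 1.07 (adjusted p = 5.30e-04), Psmd5 at 0.88 (adjusted p = 0.00312) and Psmg3 at 0.91 (adjusted p = 1.50e-04), and quantile normalization lost the day 3 calls of Psmb9, Psmd5, Psmg3 and Psmd12, the last at -0.26 (adjusted p = 0.0621). Psme4 was lower with its own total at day 3, -0.57 (adjusted p = 0.0473), but not called with FPKM rescaled to a common sum, -0.42 (adjusted p = 0.243), nor at day 7 -0.28 (adjusted p = 0.321) or day 14 -0.49 (adjusted p = 0.122). Psmd12 turned to 0.21 at day 3 and 0.17 at day 7, so its direction is relative to the scaling of the table, and at day 7 it was -0.14 with quantile normalization (adjusted p = 0.362). Psmd7 and Psmd8 were -0.12 each at day 14 with own totals and -0.21 each with quantile normalization, and were not called with either.

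**Figure D5:**
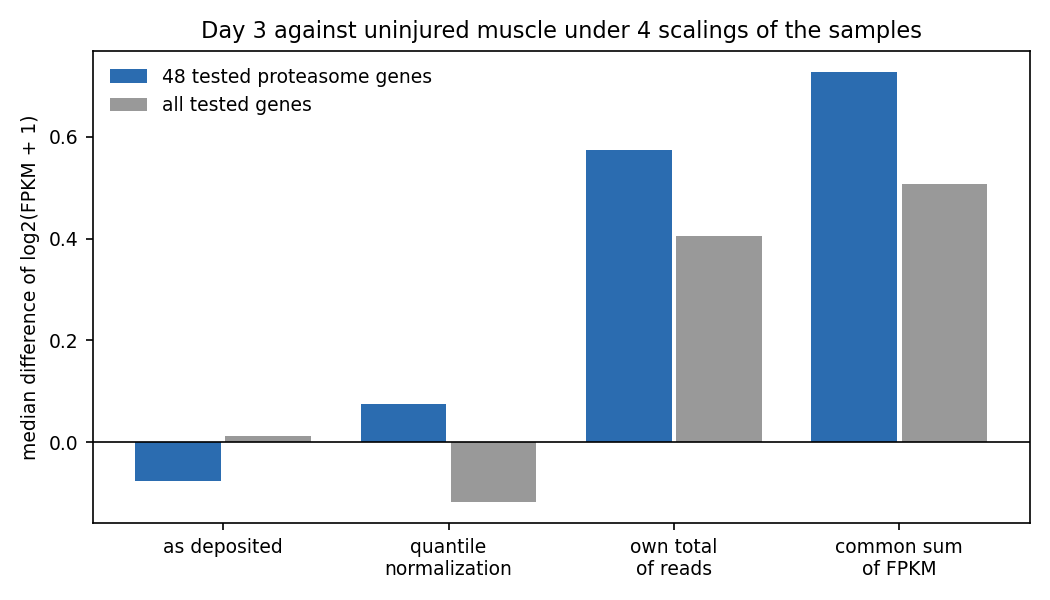
Median day 3 difference of log2(FPKM + 1) over the 48 tested proteasome genes (blue) and all 14630 tested genes (grey) under 4 scalings of the samples. The proteasome median is -0.08 as deposited, 0.08 with quantile normalization, 0.57 with each sample's own total and 0.73 with a common sum of FPKM. The median of all genes is 0.01, -0.12, 0.40 and 0.51 in the same order. With own totals and a common sum the pseudocount of 1 damps the shift of low genes, so the gap between the blue and grey bars there also depends on it.

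Genes that work with the proteasome were read from a list of 40 tested genes, of which 11 were called higher and 10 lower at day 3, beside 23.4% and 19.8% of all genes tested. Antigen processing, which takes up immunoproteasome peptides, had 9 of 10 genes higher. B2m, the MHC class I light chain, rose by 1.37, H2-D1, a heavy chain, by 1.45, the peptide transporter genes Tap1 and Tap2 by 1.03 and 0.57, the loading factor Tapbp by 0.97, and the transcription factor Irf1 by 0.57 (adjusted p = 5.92e-04, 1.80e-04, 0.00406, 0.0406, 7.11e-05 and 0.0323, limma). Erap1, which trims peptides, stood at 0.12 and was not called. With quantile normalization 5 of 10 were called at day 3, and with each sample's own total 10 of 10. At day 7 Tapbp and H2-D1 were higher, at day 14 H2-D1 was, and at day 21 none was called. Own totals called 9 at day 7 and 3 at day 14.

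The 3 genes that set transcription of proteasome genes split. Nfe2l1 (NRF1), known to drive them when proteasome activity is low, fell by 0.76, and Ngly1, the enzyme that activates it, fell by 0.67, while Nfe2l2 (NRF2), its relative in the oxidative stress response, rose by 0.64 (adjusted p = 0.00888, 7.03e-04 and 0.00485, limma). All 3 were called the same way at day 7, only Ngly1 by day 14 and none by day 21. With each sample's own total Nfe2l1 and Ngly1 were at -0.10 and -0.14 at day 3 and were not called, while Nfe2l2 stayed higher, and with a common sum Nfe2l1 turned to 0.06. Quantile normalization also lost Nfe2l1, at -0.50 (adjusted p = 0.0833). Of 7 proteasome-associated genes 3 were lower at day 3 (19.8% of all genes were) and none was higher. Ecpas, a scaffold that binds the 26S particle, fell by 1.04, Zfand5, an activator of the 26S particle in atrophy, by 1.32, and the ubiquitin ligase Ube3c by 0.50 (adjusted p = 6.87e-06, 2.49e-06 and 0.00921, limma). With each sample's own total Ecpas and Zfand5 were still called lower (-0.42 and -0.67), Ube3c stood at 0.02, and 3 other genes of the list were called higher. Adrm1 and Sem1, parts of the cap without a Psm symbol, and Pomp, which matures the core, were at -0.15, -0.16 and 0.11 and were not called at any time, though all 3 were called higher at day 3 with each sample's own total.

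Of 9 shuttle factors and Vcp partners 3 were lower at day 3 (19.8% of all genes were), Ubqln4 by 0.90, Ufd1 by 0.44 and Vcp, the segregase that extracts ubiquitinated proteins, by 0.33 (adjusted p = 5.72e-05, 0.00408 and 0.0483, limma). Ubqln4 was still lower at day 21, -0.53 (adjusted p = 0.0490). Own-total scaling called none of the 3 lower at day 3, with Ubqln4 at -0.26, and Ufd1 and Vcp turning to 0.17 and 0.33, and with quantile normalization Vcp was at -0.10 and not called. Of 6 genes of ubiquitin and its E1 enzyme, 1 was called higher and 1 lower at day 3 (23.4% and 19.8% of all genes were). The higher one, Rps27a, encodes ubiquitin fused to a ribosomal protein and rose by 0.99 (adjusted p = 0.0119, limma). At days 7 and 14 none of the 6 was higher and 1 was lower. Rps27a was also called with own-total scaling, at 1.65. That scaling gave 3 higher and 1 lower at day 3, 2 and 0 at day 7, and 0 and 1 at day 14. The muscle ubiquitin ligase Fbxo32 (atrogin-1), known from atrophy, fell by 1.34 at day 3 and was lower at every later time, at -0.79, -1.13 and -1.19 (adjusted p = 0.0393, 0.00793 and 0.0274), whereas Trim63 (MuRF1) was at -0.30 and was not called. With own-total scaling Fbxo32 was at -0.71 at day 3 and was not called (adjusted p = 0.112). At days 7, 14 and 21 own totals and a common sum called none of the 2 muscle ligases lower, nor any gene of the transcription, proteasome-associated and shuttle lists, and quantile normalization called no muscle ligase at days 7 and 21 and no shuttle gene at day 21.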

How the data were processed

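RNA of 27 mouse tibialis anterior samples was sequenced, and the authors deposited 1 table of FPKM for 54532 genes. The submitters' processing notes name HISAT2 2.0.5 and featureCounts 1.5.0-p3, and how the FPKM denominators were set is not given in the sources used here. FPKM times gene length gave whole reads for every value above 0 (tolerance 0.05 reads), from which depth was recovered. Groups followed the labels.

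Genes with at least 0.5 FPKM in at least 5 samples (14630) were tested on log2(FPKM + 1) with limma 3.58.1 with trend in R 4.3.3, all 27 samples in 1 fit, with Benjamini-Hochberg adjustment within each comparison. Ratios within a sample were compared with exact permutation tests (SciPy 1.17.1), two-sided, adjusted over 12 tests, and the ratio tests of day 21 against day 3 and the scalings of the pathway lists were added after the data had been seen. Alternatives changed the pseudocount, the filter, the scaling, the samples fitted, voom weights on the recovered reads, and the replicate block, and left out each sample. The fit was tested on simulated data.

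Named were Psmb5 to Psmb10, Psme1, Psme2, the members of each role with the largest and smallest day 3 difference, and those called. Members and lists were chosen with earlier results of these data known. Of the listed genes, Paaf1 was not analysed here and some others are counted in their lists but not reported here. No pair of libraries agreed within sampling noise. Coordinates are GRCm38, matching GENCODE M21 for 48 of 50 members. Exon bases of 15 members are shared with other genes, which unstranded reads cannot separate.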

Additional observations from a re-analysis of the deposited data

Results flagged for a closer look

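In groups of 5 or 6 samples, 20 of 255 combinations of a group with 1 of the 48 tested genes or 3 ratios had a sample farther from the rest than Dixon's 95% limit allows, where chance flags about 1 in 20, or 12.8. The combinations reuse the same libraries and are not independent, so 20 against 12.8 does not measure an excess over chance. Of the 20 flags 9 were day 21 replicate 5. On the log2(FPKM + 1) scale it read low for Psma3 (4.76), Psma5 (4.82), Psma6 (6.39), Psmb1 (4.94), Psmc1 (5.8), Psmc4 (5.17), Psmc6 (4.47) and Psmd13 (3.81), and high for Psme1 (5.33). Day 3 replicate 5 was low for Psma1 (4.43), Psmb2 (5.94), Psmd11 (3.35) and Psmd14 (4.03), and day 14 replicate 1 was low for Psma4 (5.37), Psma7 (4.88), Psmb6 (6.12) and Psmg4 (3.6). Single samples apart were day 3 replicate 2, high for Psmb3 (6.32), uninjured replicate 3, low for Psmb7 (4.7), and uninjured replicate 4, high for Psmd7 (6.36).

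Effects against uninjured muscle differed between days 21 and 3 for Psmd10 (-0.62 on the log2 scale, limma adjusted p = 0.00298), Psmb8 (-0.97, limma adjusted p = 0.0117), the ratio of Psmb8 to Psmb5 (-1.55, exact permutation test, adjusted p = 0.0238) and the ratio of Psmb9 to Psmb6 (-1.47, exact permutation test, adjusted p = 0.0238). The cause of these differences was not tested.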

How the results depend on the processing

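Other pseudocounts, limma without the trend, median-ratio scaling and voom kept each count of called members within 1.5 times. Counts are given as higher and lower. With a common sum of FPKM they were 35 and 0 at day 3, 29 and 0 at day 7, 1 and 0 at day 14 and 0 and 16 from day 3 to day 21, and with own totals of reads 34 and 1, 22 and 0, 6 and 0, and 0 and 13. With quantile normalization they were 6 and 1, 1 and 1, 6 and 2, and 2 and 2. The shares of all genes called follow in the same order. A common sum gave 46.94% and 2.201%, 43.09% and 1.429%, 11.47% and 0.7314%, and 1.155% and 33.09%. Own totals gave 44.66% and 4.224%, 36.56% and 2.898%, 15.55% and 1.969%, and 2.146% and 30.65%. Quantile normalization gave 18.96% and 25.52%, 11.62% and 14.68%, 6.883% and 8.913%, and 14.41% and 14.39%. Without a filter 4 were higher at day 3 and 1 lower at day 14. With only the groups compared 1 was lower at day 7 and 1 at day 21, with 4 higher and 5 lower from day 3 to day 21, and a minimum of 1 FPKM gave 1 lower at day 21. Leaving out 1 sample gave 4 to 6 higher and 2 to 2 lower at day 3 (4 higher without uninjured replicates 2 or 4 or day 3 replicate 4), 0 to 1 and 1 to 2 at day 7 (1 higher without day 7 replicate 1; 1 lower without uninjured replicates 1, 2 or 4 or day 7 replicates 1, 5 or 6), 0 to 1 and 1 to 4 at day 14 (1 higher without day 14 replicate 1; 1 lower without uninjured replicates 2, 3, 4 or 5 or day 14 replicates 1, 4 or 5), 0 to 0 and 0 to 1 at day 21, and 0 to 2 and 2 to 4 from day 3 to day 21. It moved the day 3 ratios of Psmb8 to Psmb5 between 1.33 and 1.61 and of Psmb9 to Psmb6 between 1.16 and 1.51 (exact permutation tests, adjusted p = 0.0635 to 0.0952, where 0.0159 is the smallest unadjusted p that 4 against 5 samples allow). Without day 3 replicate 5 and day 7 replicate 5 together the ratios were 1.38 and 1.22 (exact permutation tests, adjusted p = 0.0952), 1 member was lower at day 7 and 1 at day 21, and 4 were lower from day 3 to day 21.

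At days 3, 7, 14 and 21 the sign changed in 29, 28, 22 and 12 of the 48 tested members with a common sum, in 29, 28, 20 and 12 with own totals, and in 14, 19, 12 and 2 with quantile normalization, and in none with median-ratio scaling. Of the values given in the report that were called before or after the change, those that turned with a common sum and own totals included, at day 3, Psmd12 (0.37 and 0.21), Psma4 (0.78 and 0.63), Psmb5 (0.73 and 0.58), Psmb6 (0.56 and 0.40), Psmd9 (0.57 and 0.45), Psmf1 (0.60 and 0.48), Psmg1 (0.73 and 0.58) and Psmc2 (0.55, common sum), and, at day 7, Psmd12 (0.34 and 0.17). Psma6 turned with both scalings at days 3 and 7. Uncalled estimates turned too, among them Psmd7 and Psmd8 at day 3 (0.52 and 0.65 with a common sum), and Psmd8 also with quantile normalization (0.07). The first 2 scalings raise the median of all genes. In simulation limma recovered 5.5% of changes of 0.5, 66.7% of 1 and 93.8% of 2 on the log2 scale at day 3. There 73, 63 and 64 of 14630 genes were changed by these sizes, with 1 fixed spread between samples for all genes. In the real samples 3417 genes were called higher and 2899 lower at day 3, which loosens the threshold. Small changes were mostly not recovered in that setting, and the share detectable in these data was not measured. Psmd5 at 0.40 and Psmd10 at 0.47 were called.

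Replicate numbers were not used as pairs in the main fit. Same-numbered samples had a median correlation of -0.003, with 15 of 51 pairs over 0.1. Differently numbered samples had a median of 0.003, with 55 of 240 pairs over 0.1. Of the 27 samples 11 were closest to a sample of their own number. These values do not settle whether samples of 1 number belong together. A replicate block by number gave 1 lower member at day 21 and 1 higher and 4 lower from day 3 to day 21, and a block by the letter in the labels gave 1 lower at day 21.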
